A study of Mus musculus with 8 samples.

Results

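The wells described here were the globin-rich wells of 8 libraries of single sorted cells from the mouse yolk sac. A well was counted as globin-rich when its summed Hbb-y, Hbb-bh1, Hba-x, Hba-a1 and Hba-a2 transcripts per 10000 transcripts of the well reached 3 times the mean over all kept wells of the same kind of library. Kept wells were those with at least 1000 transcripts, 1223 of 1536. The rule found 49 globin-rich wells, 4.01% of the kept wells. The A1/A2 libraries, numbered 1 to 4, held 3, 7, 6 and 7 of them, and the EMP libraries, numbered likewise, held 9, 6, 6 and 5. Hba-a2 is not among the genes listed in the tables, so the sum holds 4 of the 5 genes. The working label of these wells is primitive erythroid. Its erythroid part was borne out by genes outside the rule in most of 15 wells with 1000 or more globin transcripts. Its primitive part rests on the globins that chose the wells. The other 34 of the 49 wells, shallower at the median, held few erythroid transcripts, so the label could not be decided for them. The set is therefore called by its rule, as described below.

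All libraries came from the extraembryonic yolk sac (YS) of C57BL/6N mice, wild type, at E9.5 (embryonic day 9.5), and all carry the batch label A. Of the 8 libraries, 4 are labelled as A1 and A2 cells and 4 as EMP cells, the usual abbreviation for erythromyeloid progenitors. Cells stained for CD45 and CD11b were sorted as CD45+ cells into 384-well plates, and each library was read with mCEL-Seq2, which tags the 3′ end of each transcript with a well barcode and a molecular identifier. The labels do not say which libraries came from separate animals, so the p-values below measure the spread between these libraries only, which may be technical.

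Primitive red cells are the first blood cells of the mammalian embryo. They form in the blood islands of the yolk sac, enter the circulation while still nucleated, and fill themselves with embryonic hemoglobin made of the alpha-like chains Hba-x and Hba-a1 and the beta-like chains Hbb-y and Hbb-bh1. Their maturation is driven by the transcription factors Gata1 and Klf1 and needs heme synthesis, iron uptake through the transferrin receptor and a spectrin-based membrane skeleton. Mature red cells carry no CD45, the leukocyte antigen used for the sort.

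The promoters of 3 globin genes of the rule and of Alas2, the erythroid enzyme that starts heme synthesis, are printed because these genes were counted together in the same wells. Each is the 250 bases before the start of the gene, 5′ to 3′ on the strand of the gene, from RefSeq on GRCm38.p6. Capitals mark every match of GATAA, the core letters bound by GATA factors, and of CACCC, the core letters bound by Klf1, on either strand, so that TTATC and GGGTG are in capitals too. The motifs were chosen after the sequences were seen.

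Hbb-y, chr7:103853208-103853457, minus strand: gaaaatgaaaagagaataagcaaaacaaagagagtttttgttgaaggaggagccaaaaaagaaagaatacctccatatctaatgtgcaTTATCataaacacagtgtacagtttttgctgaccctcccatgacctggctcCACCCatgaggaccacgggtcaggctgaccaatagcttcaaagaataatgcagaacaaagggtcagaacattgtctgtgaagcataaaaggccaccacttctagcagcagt

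Hba-x, chr11:32276350-32276599, plus strand: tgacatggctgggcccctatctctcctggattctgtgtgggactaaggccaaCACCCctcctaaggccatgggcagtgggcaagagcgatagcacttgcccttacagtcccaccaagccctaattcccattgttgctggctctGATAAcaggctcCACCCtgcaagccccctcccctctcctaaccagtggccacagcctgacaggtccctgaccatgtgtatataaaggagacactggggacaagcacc

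Hba-a1, chr11:32283422-32283671, plus strand: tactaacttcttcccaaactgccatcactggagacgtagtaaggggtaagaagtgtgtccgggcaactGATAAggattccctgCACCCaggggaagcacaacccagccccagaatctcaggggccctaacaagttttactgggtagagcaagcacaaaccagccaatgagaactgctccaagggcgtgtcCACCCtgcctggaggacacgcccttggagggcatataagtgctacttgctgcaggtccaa

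Alas2, chrX:150547167-150547416, plus strand: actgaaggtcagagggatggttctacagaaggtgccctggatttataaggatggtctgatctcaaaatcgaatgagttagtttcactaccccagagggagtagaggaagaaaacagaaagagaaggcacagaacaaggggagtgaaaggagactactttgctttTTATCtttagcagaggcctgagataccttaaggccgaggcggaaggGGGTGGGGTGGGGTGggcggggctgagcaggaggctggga

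Each of the 4 windows held 1 GATAA, at 162 bases before the start of Hbb-y, 107 before Hba-x, 182 before Hba-a1 and 86 before Alas2. CACCC was found once in the Hbb-y window, 2 times in each alpha-like window and 3 times, adjoining one another, in the Alas2 window. Among 32851 windows of the same length, 22.6% held GATAA and 52.0% held CACCC, so a match is common and is a description of the letters only. Hbb-bh1 and Slc4a1 were not in the promoter table.

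The wells were chosen by their measured globin level, so it is given as a description with no test. The threshold was 91.2 globin transcripts per 10000 in A1/A2 libraries and 104.9 in EMP libraries. The lowest globin-rich wells stood at 93.7 and 103 in A1/A2 libraries and at 112 and 116 in EMP libraries. The highest of the other wells stood at 88.1 and 86.9 in A1/A2 libraries and at 87.5 and 87.4 in EMP libraries. In EMP libraries no well lay between 87.5 and 112. The globin-rich wells reached 3052 per 10000 in A1/A2 libraries, with a median of 205, and 2832 in EMP libraries, with a median of 297. The other wells had medians of 6.98 and 5.14, and 89.0% and 97.0% of them held at least 1 globin transcript. Globin transcripts were thus counted in nearly every well, while the globin-rich wells held 78.1% of all globin transcripts of the A1/A2 libraries and 86.9% of those of the EMP libraries.

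Globin-rich wells were shallower than the other wells at the median, with 3166 transcripts against 6403 in A1/A2 libraries and 9816 against 20543 in EMP libraries. Their totals ranged from 1100 to 163751 in A1/A2 libraries and from 1276 to 210676 in EMP libraries. Estimated transcripts outside the globin genes, summed over the globin-rich wells of a library, ran from 34042 to 171909 in A1/A2 libraries and from 86927 to 338042 in EMP libraries. The corresponding sums of the other wells ran from 2522223 to 3421607 in A1/A2 and from 3766664 to 5242592 in EMP libraries. In each library a large part of the globin-rich sum came from its deepest well, namely 87.7%, 65.1%, 86.2% and 41.4% for A1/A2 and 36.4%, 60.5%, 45.0% and 52.0% for EMP libraries.

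**Figure D1:**
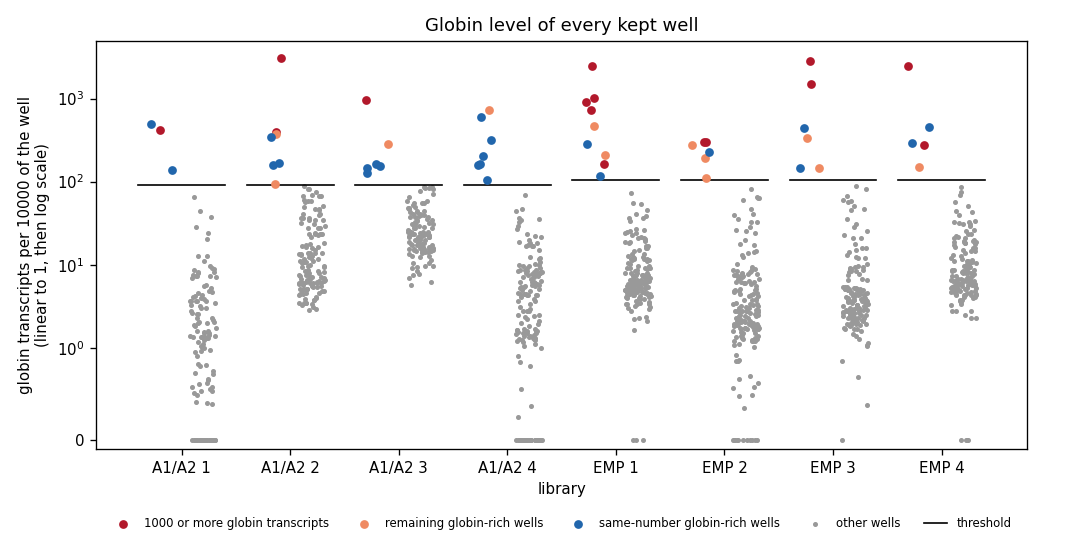
Globin transcripts per 10000 transcripts of every kept well, by library, on an axis linear to 1 and then log, with globin-rich wells coloured by class left of the other wells and the threshold of each kind of library drawn as a line. The highest other wells stand at 88.1 in A1/A2 and 87.5 in EMP libraries, under thresholds of 91.2 and 104.9, and the globin-rich wells reach 3052 in A1/A2 and 2832 in EMP libraries.

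Libraries shared well numbers in a way that bears on every result below. All 8 libraries use the same well numbers, each with its own barcode of 6 bases, and the 49 globin-rich wells fell on 25 of these numbers. Well number 157 was globin-rich in 6 of the 8 libraries, numbers 100 and 124 in 5 each, and numbers 97 and 179 in 4 each. In all, 33 globin-rich wells stood on 9 numbers that held at least 2 of them. The barcodes of the numbers most often repeated are printed because they are what these wells share.

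Well number 157: GTAACC

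Well number 100: GGTAGA

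Well number 124: TTGGAG

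Well number 97: GGTATG

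Well number 179: CGCATA

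Well number 20: AGCTCA

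Barcodes differed from one another by at least 2 bases. At each of these numbers, 1 library, or 2 at number 157, held far more globin transcripts than the others. At number 157, A1/A2 library 2 held 12526 and EMP library 1 held 9436 globin transcripts, and the other 6 libraries held 62.1 to 152. At number 100, A1/A2 library 3 held 15588 and the rest held 88.3 to 233. Over the 14 numbers with a well of 1000 or more globin transcripts, the other libraries held a median of 29.0 globin transcripts, against 5.00 at all other numbers. As a share of the highest well at the number, the median of the rest was 0.457%, with a range of 0.254% to 2.31% over the 14 numbers. Of 89 other kept wells at these numbers 22 were globin-rich (24.7%), against 12 of 1119 kept wells elsewhere (1.07%).

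The 49 globin-rich wells were therefore divided in 3 classes, a division made after the values were seen. The first holds 15 wells with 1000 or more globin transcripts, 4 in A1/A2 and 11 in EMP libraries. The second holds 22 wells whose number carried at least 10 times more globin in another library, 15 in A1/A2 and 7 in EMP libraries, called same-number wells. Their ratios ran from 67.0 to 394, and the next highest ratio of a globin-rich well was 5.97. The third holds the 12 remaining wells, 4 in A1/A2 and 8 in EMP libraries. Without the same-number wells the A1/A2 libraries held 1, 4, 2 and 1 globin-rich wells and the EMP libraries 7, 5, 4 and 3. A1/A2 library 4 had no well of the first class and 6 same-number wells. What places globin transcripts at the same number in several libraries was not tested.

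**Figure D2:**
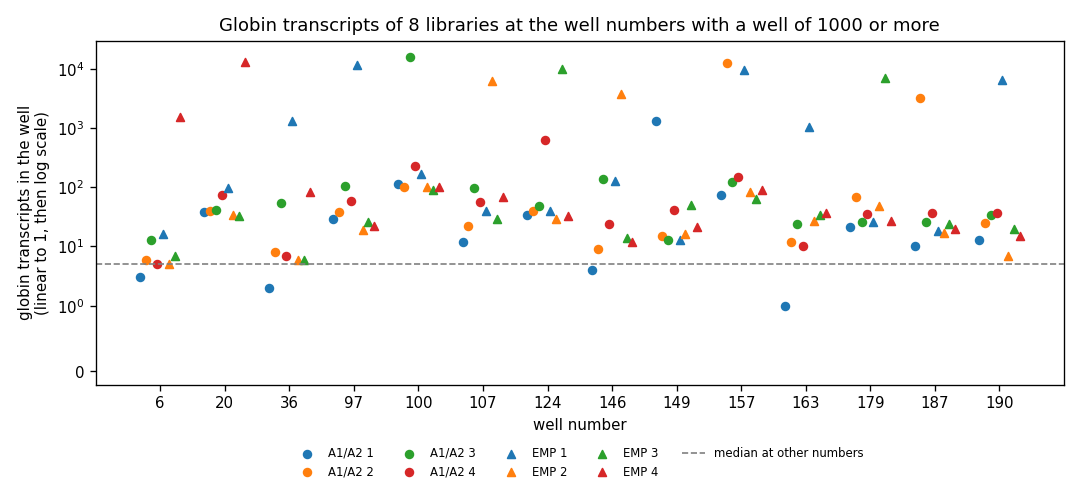
Globin transcripts of the wells at the well numbers that held 1000 or more in some library, on an axis linear to 1 and then log, with each library marked and a dashed line at 5.00, the median at all other numbers. At each number 1 well, or 2 at number 157, stands at 1000 or more, and the wells of the same number in other libraries stand far lower, around a median of 29.0.

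Most of the 15 wells with 1000 or more globin transcripts held several genes of a red cell, with EMP library 1 well 163, described below, as an exception. Transcripts of Gata1 were present in 15 of 15, of Klf1 in 14 and of Slc4a1 (band 3, the anion exchanger of the red cell membrane) in 14. Alas2 was present in 11. Among the 1174 other wells the same genes were found in 116 for Gata1, 9 for Klf1, 32 for Slc4a1 and 4 for Alas2. The 15 erythroid marker genes outside the globins that the tables list summed to 25.1 per 10000 transcripts outside the globins in these wells, against 2.54 in the other wells. Median totals were 55675 in the 15 wells and 13558 in the other wells, and a deeper well shows more genes.

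The same-number and remaining wells carried few of these transcripts. Their erythroid marker genes summed to 8.15 and 8.17 per 10000, against 2.54 in the other wells, which rests on 58.0 and 55.0 transcripts in all. At least 1 such transcript was found in 19 of 22 same-number, 11 of 12 remaining and 892 of 1174 other wells. Gata1 was found in 3 of 22 same-number wells and in 0 of 12 remaining wells, and a count of 0 in the 67312 transcripts outside the globins of the remaining wells says only that it was not detectable at this depth. Slc4a1 was found in 1 of 22 and 2 of 12, Klf1 in 1 and 3, and Alas2 in 0 of both. The median total was 2241 in same-number wells and 5657 in remaining wells, below that of the other wells.

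Other cell types were represented as follows. Macrophage markers summed to 3.12 to 10.2 per 10000 in the globin-rich wells of A1/A2 libraries, against 11.8 to 16.5 in their other wells, and to 0.296 to 1.15 in those of EMP libraries, against 1.39 to 1.96. The sums did not overlap within either kind, but the deepest wells weigh most in them. Pooled over both kinds, macrophage markers stood at 1.76 per 10000 in the 15 wells, 2.97 in the remaining and 12.5 in the same-number wells. Without the well that held most of them in each class, the values were 0.711, 2.32 and 7.20. Sums over a class often came from 1 well. Of 187 macrophage transcripts in the 15 wells, 122 lay in A1/A2 library 3 well 100, and of 98.1 endothelial transcripts in the remaining wells, 66.1 lay in EMP library 3 well 159. EMP library 1 well 10 held 34.1 of the 81.1 mesenchyme transcripts of the remaining wells. No difference between classes is therefore read from these lists. Markers of the yolk sac endoderm summed to 215 per 10000 in the 15 wells, 153 in the remaining and 106 in the same-number wells, against 167 in the other wells. Afp (alpha-fetoprotein, a secreted product of the endoderm) was found in all 15 wells, 12 of 12 remaining, 21 of 22 same-number and 1124 of 1174 other wells, so that its transcripts do not mark a class here.

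**Figure D3:**
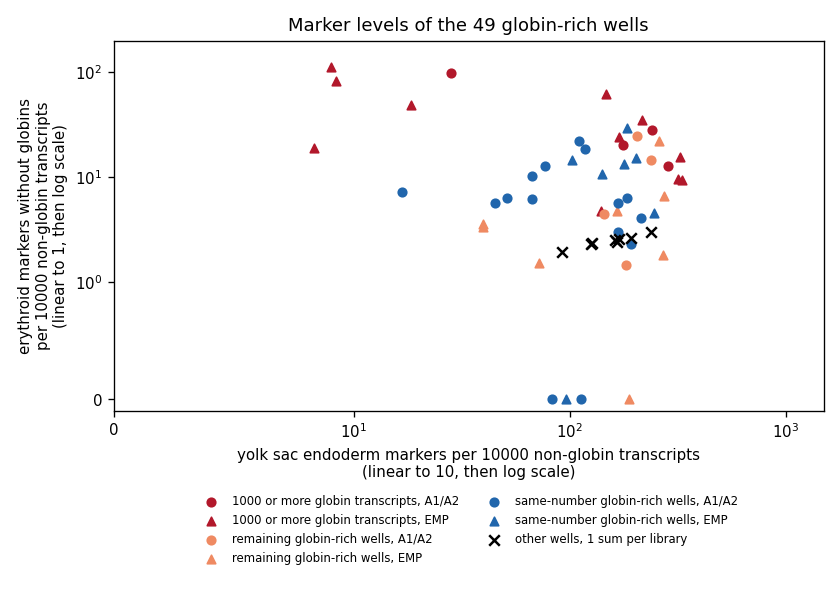
Summed erythroid markers without globins (vertical) against summed yolk sac endoderm markers (horizontal), each per 10000 transcripts outside the globins on axes that are linear near 0 and then log, 1 point per globin-rich well by class and kind of library, with crosses for the sum of the other wells of each library. Of the 15 wells with 1000 or more globin transcripts, 5 lie at or below 28.1 on the endoderm axis and 10 lie between 139 and 329.

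The 15 wells differed widely among themselves. They are described here by their globin, erythroid marker and Afp transcripts. EMP library 3 well 124 held 10050 globin transcripts, 2832 per 10000, with 113 erythroid marker transcripts per 10000 outside the globins and 2.00 transcripts of Afp. A1/A2 library 2 well 157 held 12526 globin transcripts, 3052 per 10000, with 98.3 erythroid marker transcripts per 10000 and 15 of Afp. EMP library 1 well 157 held 9436 globin transcripts, 2505 per 10000, with 83.2 per 10000 and 7.0 of Afp. These wells, together with EMP library 1 wells 36 and 190, had at most 28.1 endoderm marker transcripts per 10000. Well 190 also held 163 progenitor and 155 endothelial marker transcripts, 20.3 and 19.2 per 10000. The wells of EMP library 1 that were not globin-rich had 6.30 and 5.26 per 10000.

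The remaining 10 of the 15 had 139 to 329 endoderm marker transcripts per 10000, against 167 in the wells that were not globin-rich. A1/A2 library 3 well 100 held the most globin transcripts of all, 15588, at 952 per 10000 and with 1010 transcripts of Afp. EMP library 2 well 107 held 6268 globin transcripts at 298 per 10000, with 9.68 erythroid marker transcripts per 10000 and 1438 of Afp. EMP library 2 well 146 held 3713 at 302 per 10000, with 9.51 and 752 of Afp. A1/A2 library 2 well 187 held 3176 at 395 per 10000, with 12.9 and 540 of Afp. Of the 15 wells, 4 of 4 in A1/A2 and 5 of 11 in EMP libraries had more than 3 times the median total of the library.

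EMP library 1 well 163 stood apart. It held 1038 globin transcripts, of which 657 were Hbb-bh1 and 177 Hbb-y, and Hbb-y made up 21.2% of the pair, against 43.8% to 64.1% in the other 14 wells. It had 7.01 transcripts of Gata1 and 3.0 of Epor but 0 of Klf1, Slc4a1 and Alas2. It also held 148 transcripts of the 10 megakaryocyte markers, 23.4 per 10000, against 1.46 per 10000 in the other wells, and 53.1 transcripts of progenitor markers. EMP library 2 well 19, among the remaining wells, had 121 transcripts of Hbb-bh1 and 46.3 of Hbb-y, an Hbb-y share of 27.7%, with 21.0 transcripts of endothelial markers. Both wells were picked out after their values were seen.

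Summed over the globin-rich wells of a library, all 4 globins were counted at comparable levels. Per 10000, Hbb-y stood at 130.8, 312.5, 233 and 77.7 in the A1/A2 sums and at 227, 69.3, 454 and 323 in the EMP sums. Hbb-bh1 stood at 96.3, 322, 207.5 and 66.8 in the A1/A2 sums and at 231, 82.8, 468 and 309.7 in the EMP sums. A1/A2 library 4 and EMP library 2 had the lowest levels of both beta-like genes. Hba-x stood at 109.5, 305, 243 and 75.3 in A1/A2 and at 245, 77.7, 438 and 307 in EMP sums. Hba-a1 stood at 69.1, 246, 169 and 93.7 in A1/A2 and at 180.3, 66.7, 311 and 293.5 in EMP sums. Of the alpha-like genes too, A1/A2 library 4 and EMP library 2 had little, though library 4 had its lowest level for Hba-x and not for Hba-a1. Over all 4 genes A1/A2 libraries had 406, 1185, 853 and 314 per 10000 in globin-rich wells, against 1.93, 9.90, 16.8 and 4.43 in other wells. EMP libraries had 884, 296, 1671 and 1233 in globin-rich wells, against 6.49, 4.15, 5.10 and 8.64 in other wells. The transcripts of Hba-a1 and Hba-a2 in GENCODE were 99.8% identical over 538 aligned bases, so the Hba-a1 level is uncertain. Hbb-y and Hbb-bh1 were 74.5% identical, and Hba-x and Hba-a1 63.8%.

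Adult beta globins were scarce. Hbb-bs, an adult beta globin, summed to 1.0, 10, 19.0 and 4.0 transcripts in globin-rich wells of A1/A2 libraries and to 114, 30.1, 35.1 and 23.1 in those of EMP libraries. Hbb-bt, its close copy (93.3% identical), summed to 1.0, 24.0, 19.0 and 6.0 in A1/A2 and to 91.3, 1.0, 35.1 and 85.8. The theta-like Hbq1a and the embryonic Hbb-bh2 did not exceed 1 transcript in any sum. The highest count of a globin gene in a well was 4447 estimated transcripts, which stands for 2713 of 4096 identifiers, or 66.2%, so the correction for identifiers seen more than once is largest in these wells.

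The make-up of the globins is given as a description with no test, since the same 4 genes chose the wells. Hbb-y made up 51.1 ± 3.64% of Hbb-y and Hbb-bh1 in globin-rich wells and 47.9 ± 3.36% in other wells (SD, n = 8 libraries each), higher in 6 of 8 libraries. Hba-x made up 55.2 ± 5.34% of Hba-x and Hba-a1 in globin-rich wells and 53.9 ± 3.61% in other wells, higher in 5 of 8 libraries. Between kinds of library, Hbb-y made up 53.4 ± 3.44% in A1/A2 and 48.8 ± 2.33% in EMP globin-rich wells (SD, n = 4 each), and Hba-x 55.0 ± 7.41% in A1/A2 and 55.3 ± 3.41% in EMP globin-rich wells. By well, Hbb-y shares spanned 18.2% to 59.7% in same-number wells and 21.2% to 64.1% in the 15 wells with most globin.

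Genes outside the globins were compared between globin-rich and other wells in sums per library with edgeR's quasi-likelihood test, library as a block, and Benjamini-Hochberg adjustment over 9892 genes. Levels below are CPM (counts per 1000000) of the sums without globins. In A1/A2 libraries 407 genes passed an adjusted p of 0.05 (4.11%), 149 higher (1.51%) and 258 lower (2.61%) in globin-rich wells. In EMP libraries 170 passed (1.72%), 118 higher (1.19%) and 52 lower (0.526%). Under DESeq2's size factors in place of TMM the A1/A2 split was 219 higher and 186 lower and the EMP split 130 and 49, with the median of all genes moved up by 0.13 (log2) in A1/A2 libraries. Under DESeq2's Wald test the split was 123 higher and 52 lower in A1/A2 libraries and 95 higher and 7 lower in EMP libraries. In EMP libraries it was 87 higher and 87 lower without library 1, 134 and 19 without library 2, 78 and 33 without library 3, and 91 and 27 without library 4. In A1/A2 libraries it was 78 higher and 64 lower without library 3 and 123 and 145 without library 1. The median log2 fold change of all genes was -0.22 in A1/A2 and -0.08 in EMP libraries. In both kinds of library 87 genes rose, 58.4% of those higher in A1/A2 and 73.7% of those higher in EMP libraries, and 34 fell, 13.2% and 65.4%. No gene was called in opposite directions.

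Most calls in A1/A2 libraries were lost without the deepest wells. Leaving out wells with over 3 times their library's median total removes 5 of 23 A1/A2 and 5 of 26 EMP globin-rich wells. Among them are 4 of 4 A1/A2 but 5 of 11 EMP wells with 1000 or more globin transcripts. Depth and this class of wells therefore cannot be told apart in A1/A2 libraries. After the removal 29 genes passed in A1/A2 libraries, 1 higher and 28 lower, of 4638 tested. In EMP libraries 147 passed, 94 higher and 53 lower. In that setting 0 genes of heme synthesis (8 tested, 0 at an unadjusted p under 0.05) and 0 of the membrane list (18 tested, 3 higher at an unadjusted p under 0.05) passed edgeR's test in A1/A2 libraries, while in EMP libraries 8 of 8 tested heme synthesis genes and 13 of 18 membrane genes were still higher. Without the same-number wells 447 genes passed in A1/A2 libraries (142 higher, 305 lower) and 178 in EMP libraries (118 higher, 60 lower). With only the 15 wells of 1000 or more globin transcripts the counts were 364 and 183.

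Erythroid transcription factors were higher in part. Of 14 tested, 4 rose and 1 fell in A1/A2 libraries and 5 rose in EMP libraries (E2f2 besides the 4), with median log2 fold changes of 0.94 and 0.77. In EMP libraries 1 rose under DESeq2's Wald test, 1 with no library block and 2 without library 1, and in A1/A2 libraries 2 rose with no block and 1 without library 2. In both kinds of library Gata1, Zfpm1 and Tal1 each missed the threshold in at least 1 of these settings, while Klf1 in EMP libraries passed in all 3 of these EMP settings. Gata1, the factor on which red cell formation depends, stood at 58.9, 106.2, 43.1 and 0 CPM in globin-rich wells of A1/A2 libraries 1 to 4, against 0.817, 1.75, 15 and 10.3 CPM in their other wells. In EMP libraries it stood at 97.4, 18, 134 and 106.0 CPM, against 18.2, 15.5, 20.3 and 13.6 CPM. Gata1 was higher in 3 of 4 A1/A2 and 4 of 4 EMP libraries, but in EMP library 2 by little, and its log2 fold changes were 3.21 ± 0.56 (SE, adjusted p = 1.92e-06) and 2.16 ± 0.38 (adjusted p = 1.84e-06).

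Klf1, which activates globin and membrane genes in red cells, was found in few other wells. It stood at 29.4, 89.9, 129 and 27.9 CPM in A1/A2 and 83.5, 21.1, 123 and 53.0 CPM in EMP globin-rich wells. The other wells held 0.408, 0, 2.02 and 0.886 CPM, and 0, 0.207, 0.390 and 0 CPM. The groups did not overlap. The log2 fold change was 6.46 ± 0.67 in A1/A2 libraries (adjusted p = 4.23e-19). In EMP libraries 48 transcripts stood against 3, a ratio of 354 with an exact 95% counting interval of 114 to 1779. Zfpm1, the cofactor of Gata1, rose by 2.60 ± 0.44 and 1.50 ± 0.34 (log2), and Tal1, a factor of blood and red cell formation, by 1.52 ± 0.36 and 1.13 ± 0.28. Lmo2, their bridging partner, fell by 2.12 on the log2 scale in A1/A2 libraries and had -0.75 ± 0.30 in EMP libraries (adjusted p = 0.384).

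Heme synthesis was the list with the highest share of called genes. Of its 10 tested genes 9 rose in both kinds of library (among them Alas2, Alad, Uros, Urod, Cpox, Ppox, Fech and Abcb10), with median log2 fold changes of 2.30 in A1/A2 and 2.01 in EMP libraries. Alas2 stood at 0, 24.5, 61.6 and 0 CPM in A1/A2 globin-rich wells and at 0 CPM in all 4 sums of their other wells. Set against a floor of 3 transcripts over the group, Alas2 was at least 144-fold higher in these libraries, though 2 of the 4 had none. The EMP sums had 45.2, 9.02, 33.5 and 53.0 CPM in globin-rich wells against 0.230, 0.207, 0 and 0.787 CPM, a log2 fold change of 6.59 ± 0.76 (adjusted p = 1.42e-15).

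Cpox, a later enzyme of the pathway, rose by 2.16 ± 0.24 in A1/A2 and 1.83 ± 0.20 in EMP libraries (log2, SE), and Fech, which places iron in the ring, by 2.03 ± 0.27 and 1.94 ± 0.20.

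Of 13 genes of iron uptake and storage 5 rose in both kinds of library (Tfrc, Slc25a37, Steap3, Fth1 and Glrx5), with medians of 0.59 and 0.40 (log2) over the list. In A1/A2 libraries 3 rose under DESeq2's Wald test, 3 without library 1, 2 without library 2 and 2 without library 3. Tfrc, the transferrin receptor, stood at 324, 278, 197 and 55.9 CPM in A1/A2 globin-rich wells, against 38.4, 35.2, 43.7 and 40.5 CPM. The EMP globin-rich wells had 216, 87.2, 324 and 97.1 CPM, against 30.3, 24.5, 28.3 and 32.0 CPM. It was higher in 8 of 8 libraries and least so in A1/A2 library 4, with log2 fold changes of 2.46 ± 0.30 (adjusted p = 5.65e-14) and 2.52 ± 0.26 (adjusted p = 3.38e-20). Slc25a37, mitoferrin, which brings iron into mitochondria, rose by 3.85 ± 0.53 and 4.36 ± 0.44, with 25.1 to 36.4 CPM in the other wells of A1/A2 libraries and 23.1 to 32.1 CPM in those of EMP libraries. Fth1, a ferritin chain that stores iron, rose by 0.70 ± 0.21 (adjusted p = 0.0297) and 1.26 ± 0.19.

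The red cell membrane and skeleton held the largest fold changes. Of 21 tested genes 13 rose and 1 fell in A1/A2 libraries and 15 rose and 1 fell in EMP libraries, with medians of 6.21 and 5.44 (log2). Slc4a1 stood at 500.4, 425, 419 and 0 CPM in A1/A2 globin-rich wells, against 1.23, 1.75, 2.83 and 0.295 CPM. In EMP libraries it stood at 320.0, 45.1, 424 and 406 CPM, against 0.460, 0.622, 0.585 and 2.10 CPM. A1/A2 library 4, with no well of 1000 or more globin transcripts, had 0 where the other 3 had over 400 CPM. The log2 fold changes were 7.67 ± 0.40 and 8.21 ± 0.36 (adjusted p = 2.16e-79 and 1.51e-111).

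Sptb, the beta chain of erythroid spectrin, rose by 6.50 ± 0.52 in A1/A2 and 6.00 ± 0.39 in EMP libraries (log2). Rhag and Rhd, proteins of the Rh complex, rose by 6.28 ± 0.69 and 6.21 ± 0.73 in A1/A2 and by 5.91 ± 0.54 and 5.44 ± 0.63 in EMP libraries. Kel, a blood group antigen, had 27 transcripts in globin-rich wells and 0 in other wells of EMP libraries, at least 199-fold higher. Cd47, the surface protein that checks uptake by macrophages, fell by 1.08 and 1.29 on the log2 scale and was lower in globin-rich wells of all 8 libraries.

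Of 10 genes of erythropoietin signalling Epor rose in both kinds of library and Pim1, a kinase induced by cytokines, in A1/A2 libraries. Epor, the erythropoietin receptor, stood at 88.3, 40.9, 73.9 and 0 CPM in A1/A2 globin-rich wells against 0, 0.582, 1.21 and 2.95 CPM, and at 52.2, 3.01, 55.8 and 53.0 CPM in EMP globin-rich wells against 0.919, 0.415, 2.73 and 1.84 CPM. The rise was 5.49 ± 0.72 and 4.74 ± 0.60 (log2), and A1/A2 library 4 was the exception in direction. The list median was near that of all genes, at -0.07 and -0.05.

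Of 14 genes of hemoglobin handling, oxidant defence and red cell metabolism, 5 rose in A1/A2 and 6 in EMP libraries. Car2, carbonic anhydrase, stood at 294, 1062, 825 and 55.9 CPM in A1/A2 globin-rich wells against 26.6, 34.6, 56.2 and 37.5 CPM, and at 880.1, 247, 1541 and 1201 CPM in EMP globin-rich wells against 140.2, 101, 129 and 154 CPM. It rose by 3.86 ± 0.49 and 2.65 ± 0.37 (log2). Prdx2, a peroxidase abundant in red cells, rose by 1.70 ± 0.23 and 1.66 ± 0.19, and Bpgm, which makes the phosphate compound that tunes oxygen release, by 2.69 ± 0.40 and 2.30 ± 0.29. Gpx1 rose by 1.0 ± 0.19 in EMP libraries and had 0.17 ± 0.22 in A1/A2 libraries (adjusted p = 0.764).

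Of 12 tested genes of late red cell maturation 3 rose in both kinds of library, Hemgn and Trim10 among them. Hemgn, a nuclear protein of erythroid cells, rose by 5.99 ± 0.58 and 7.13 ± 0.50 (log2). Its level was 29.4, 139, 129 and 27.9 CPM in A1/A2 globin-rich wells against 0, 1.16, 2.02 and 2.07 CPM, without overlap. Outside the lists, Cited4, a transcriptional coactivator, was among the leading genes of A1/A2 libraries, at 324, 400.4, 499 and 83.8 CPM against 6.94, 12.8, 12.9 and 12.4 CPM. It rose by 4.88 ± 0.30 there (adjusted p = 1.93e-41) and by 3.89 ± 0.23 in EMP libraries.

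**Figure D4:**
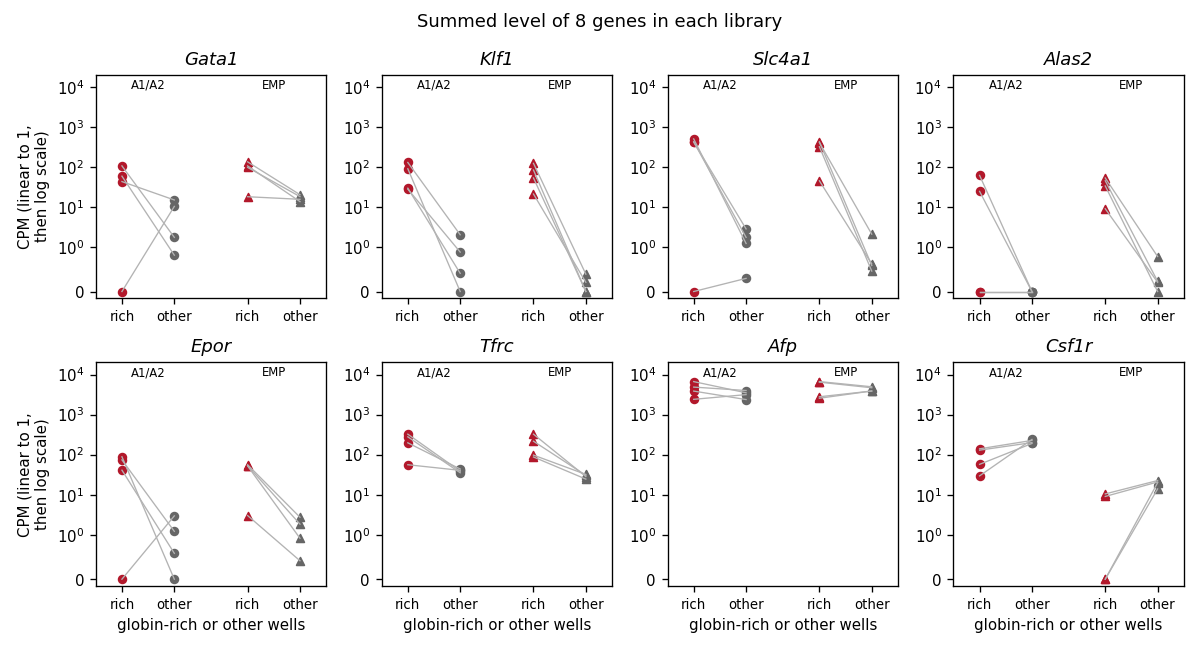
CPM of 8 genes in the globin-rich and other wells of each library, on an axis linear to 1 and then log, lines joining the sums of 1 library, A1/A2 and EMP libraries apart. Slc4a1 stands at 419 to 500.4 CPM in 3 A1/A2 globin-rich sums and at 0 in library 4, Afp overlaps between globin-rich and other wells, and Csf1r is lower in globin-rich wells.

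Factors linked to definitive red cells and to the switch away from embryonic globin were mostly not called. Their median log2 fold changes were -0.55 in A1/A2 and -0.87 in EMP libraries, against -0.22 and -0.08 for all genes. At an unadjusted p under 0.05 in edgeR, 5 of 10 were lower in A1/A2 and 6 of 10 in EMP libraries, and 1 was higher in each. Of 10 genes Cited2 rose in both kinds of library, by 1.47 ± 0.27 and 0.95 ± 0.24 (log2), and Cd44 fell by 1.84 in A1/A2 libraries. Cited2 in EMP libraries and Cd44 in A1/A2 libraries did not pass DESeq2's Wald test, and without EMP library 1, 4 of the 10 fell in EMP libraries. Without the deepest wells, of 6 tested, 3 fell and 1 rose in EMP libraries and 1 fell in A1/A2 libraries. Bcl11a, a repressor of embryonic beta globins, was at 0 in the globin-rich wells of 3 A1/A2 and 3 EMP libraries, and stood at 55.9 CPM in A1/A2 library 4 and 83.5 CPM in EMP library 1. Its log2 fold changes were -2.10 (adjusted p = 0.216) and -0.79 (adjusted p = 0.806). Sox6, a partner of Bcl11a, had 0.92 (adjusted p = 0.741) and -1.98 (adjusted p = 0.642). Myb, a factor of definitive progenitors that primitive red cells do not need, was at 0 in 3 of 4 globin-rich sums of each kind, with -2.56 (adjusted p = 0.235) and -1.42 (adjusted p = 0.247). Kit, the stem cell factor receptor, had -0.61 (adjusted p = 0.804) and -1.36 (adjusted p = 0.0523).

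Genes of proliferation moved differently in count between the kinds of library, but no difference of effects was called for them. Of 20 genes 4 fell in A1/A2 libraries (Pcna, Rrm2, Hmgb2 and Ccne2) and Mki67 rose in EMP libraries. In A1/A2 libraries 1 of the 20 fell under DESeq2's Wald test, and without A1/A2 library 3 edgeR's test called 0 of 20 (6 lower at an unadjusted p under 0.05). Mki67 did not pass without EMP library 1, 3 or 4. Mki67, a marker of cycling cells, stood at 564, 349, 458 and 389 CPM in EMP globin-rich wells against 280.4, 269, 274 and 214 CPM, a rise of 0.74 ± 0.19 (log2, adjusted p = 0.00952). Hmgb2, a chromatin protein of cycling cells, fell by 0.92 in A1/A2 libraries (adjusted p = 0.00649) and had -0.05 in EMP libraries. Of 15 translation and ribosome biogenesis genes, Npm1, Nop56, Dkc1 and Eif4a1 fell in A1/A2 libraries and 0 passed edgeR's test in EMP libraries, where 0 had an unadjusted p under 0.05 and 0 passed DESeq2's Wald test. Under the Wald test 2 of the 15 fell in A1/A2 libraries, and without library 3 edgeR's test called 0 (10 lower at an unadjusted p under 0.05). Npm1 fell by 0.75 in A1/A2 libraries (adjusted p = 0.0129), against a median shift of all genes of -0.22.

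Part of the leukocyte genes fell. Of 13 macrophage genes 8 fell in A1/A2 libraries, and Tyrobp and Fcer1g, adaptor chains of immune receptors, fell in EMP libraries too. The median log2 fold change was -1.14 in A1/A2 and -1.53 in EMP libraries, or -1.51 with genes at 0 taken at their bound. Csf1r, the growth factor receptor of macrophages, stood at 29.4, 57.2, 129 and 139.7 CPM in A1/A2 globin-rich wells against 239, 189.7, 199 and 226 CPM. It fell by 1.14 there (adjusted p = 0.00844), and in EMP libraries, with 10.4, 9.02, 0 and 0 CPM against 22.5, 20.7, 19.9 and 13.9 CPM, it had -1.50 ± 0.56 (adjusted p = 0.285). Cx3cr1, the fractalkine receptor, fell by 3.59 in A1/A2 libraries. Tyrobp was at 0 in all 4 EMP globin-rich sums against 8.13 to 22.5 CPM, at least 4.21-fold lower against a floor of 3 transcripts over the group.

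Mpo and Prtn3, granule enzymes of the neutrophil line, fell in both kinds of library. Prtn3 fell by 3.34 (log2) in A1/A2 libraries and fell by 2.37 in EMP libraries. Mpo had 1 transcript in the globin-rich wells of each kind, against 502 in A1/A2 and 345 in EMP other wells, ratios of 0.0660 and 0.0642 with exact 95% counting intervals up to 0.370 and 0.360. Under DESeq2's Wald test 1 of 6 tested neutrophil and monocyte genes fell in A1/A2 libraries and 0 in EMP libraries (2 lower at an unadjusted p under 0.05). Without EMP library 2 edgeR's test called 0 of 7 there, 2 being lower at an unadjusted p under 0.05. Cd34, a progenitor surface protein, fell by 2.63 in A1/A2 and fell by 1.35 in EMP libraries, and Runx1 fell by 2.07 in A1/A2 libraries. Of 10 progenitor genes the Wald test called 0 in either kind (2 lower in A1/A2 and 8 in EMP libraries at an unadjusted p under 0.05), and without EMP library 1, 8 fell in EMP libraries. Ccnd2, a cyclin, stood at 58.9, 65.4, 178 and 307 CPM in A1/A2 globin-rich wells against 994, 584, 583 and 783 CPM, and fell by 2.25 there and fell by 2.20 in EMP libraries. Coro1a and Rac2, which act on actin in leukocytes, fell by 3.82 and 3.63 in A1/A2 and by 1.33 and 1.94 in EMP libraries. Without the deepest wells 0 of 9 tested macrophage genes passed edgeR's test in A1/A2 libraries, 3 having an unadjusted p under 0.05, and DESeq2's Wald test on all wells called 1 of 13. In A1/A2 libraries 4 macrophage genes fell without library 1 and 2 without library 2.

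Endoderm and stromal genes gave few calls. Of 14 endoderm genes Amn, an endocytic receptor subunit, rose in A1/A2 libraries by 0.77 ± 0.24 (adjusted p = 0.0411), a call lost when any 1 of the 4 libraries was left out, and 0 passed edgeR's test or DESeq2's Wald test in EMP libraries, where 0 had an unadjusted p under 0.05. Under DESeq2's size factors 9 of the 14 were higher in A1/A2 libraries, and the Wald test called 3 higher there. In edgeR's main fit 8 of the 14 were higher and 0 lower in A1/A2 libraries at an unadjusted p under 0.05. The list median was 0.50 (log2) in A1/A2 and -0.12 in EMP libraries, against -0.22 and -0.08 for all genes. Without the deepest wells 0 passed in A1/A2 libraries, with 0 higher and 2 lower at an unadjusted p under 0.05. Afp stood at 3856, 4853, 6654 and 2403 CPM in A1/A2 globin-rich wells against 2371, 3987, 3500.3 and 3148 CPM, a log2 fold change of 0.40 ± 0.21 (adjusted p = 0.318). In EMP libraries it stood at 2557, 6663, 2781 and 6446 CPM against 3878, 4944, 3869 and 4670.5 CPM, and the groups overlapped. Of 8 mesenchyme genes Col1a1 fell by 2.20 in A1/A2 and fell by 3.01 in EMP libraries, joined by Vim in A1/A2 and by Col1a2 and Col3a1 in EMP libraries. The Wald test called 1 of the 8 in A1/A2 and 0 in EMP libraries (2 lower at an unadjusted p under 0.05), Col1a1 in neither, and Col1a1 also did not pass in A1/A2 libraries without library 1, 2 or 3 or in EMP libraries without library 1. Of 10 endothelial genes 0 passed edgeR's test or DESeq2's Wald test in either kind, and 3 were lower at an unadjusted p under 0.05 in edgeR in each. Of 4 megakaryocyte genes Pf4 fell in EMP libraries, and of 3 lymphoid genes Cd79b and Ighm fell in A1/A2 libraries, where the globin-rich wells held 0 of both. Under the Wald test 0 megakaryocyte genes passed in EMP (2 lower at an unadjusted p under 0.05), where Pf4 was also lost without library 2, and 0 lymphoid genes in A1/A2 libraries (2 lower).

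**Figure D5:**
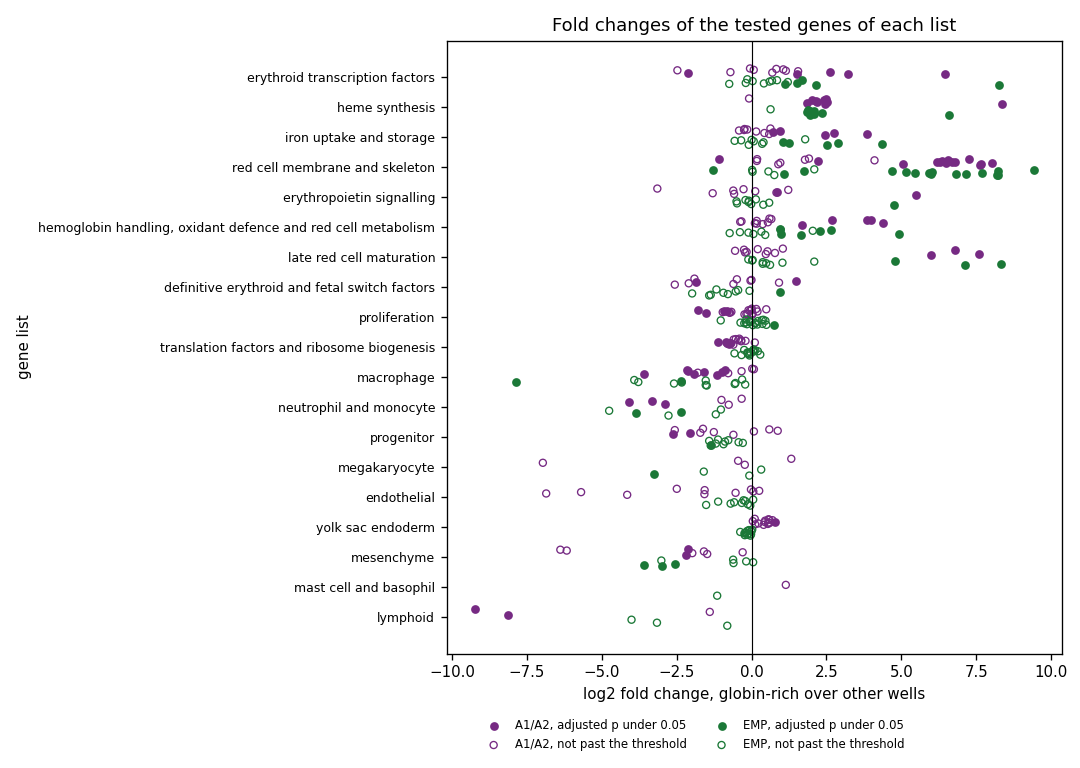
Log2 fold change, globin-rich over other wells, of every tested gene of each list, with A1/A2 libraries above EMP libraries in each list and filled points for genes with an adjusted p under 0.05. Heme synthesis (9 of 10 genes in both kinds) and membrane genes (13 and 15 of 21 higher) stand to the right, and macrophage genes (8 and 2 of 13 lower) to the left.

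The difference of effects between the kinds of library was tested by the interaction term, which called 1 of 9892 genes (0.0101%), while 715 had an unadjusted p under 0.05. That gene was Nepn, with a log2 difference of 6.53. It stood at 0, 0, 154 and 0 CPM in A1/A2 globin-rich wells, and 22.1 of its 25.1 transcripts (88.0%) came from well 100 of library 3. Without A1/A2 replicate 3 the globin-rich sums of A1/A2 libraries held 0 transcripts of Nepn. The log2 fold change that edgeR then gave, -6.01 (adjusted p = 0.736), therefore has no measured size. DESeq2's Wald test called 0 genes, with 401 at an unadjusted p under 0.05.

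Globin-rich wells of A1/A2 libraries were also set against those of EMP libraries, with 4 sums each and no block. Of 1673 tested genes 1 passed (0.0598%), and 76 had an unadjusted p under 0.05. Fcer1g, a signalling chain of Fc receptors, stood at 118, 98.0, 209 and 139.7 CPM in A1/A2 and at 20.9, 3.01, 44.7 and 0 CPM in EMP globin-rich wells, without overlap. It was higher by 3.51 ± 0.61 (log2, adjusted p = 0.0213), and was found in 14 of 23 and 7 of 26 wells. The other wells differed in the same direction, with 301, 205, 322 and 287 CPM in A1/A2 and 70.1, 64.3, 76.6 and 82.3 CPM in EMP libraries. Without the same-number wells 0 genes passed edgeR's test (98 at an unadjusted p under 0.05), and with only the 15 wells of most globin 0 passed (91 unadjusted). Of the red cell genes, Slc4a1 had 0.46 ± 0.79 and Tfrc 0.49 ± 0.46 in this comparison, with standard errors too large to show that the levels were alike.

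Erythroid genes were also compared by the share of wells with a transcript. After each well was thinned to 500 transcripts outside the globins, which left out no well, 0 of 9 erythroid genes passed a two-sided exact sign-flip permutation test over 8 libraries, and 0 had an unadjusted p under 0.05. Slc4a1 was then found in 8.33 ± 12.6% of globin-rich wells and 0.0880 ± 0.249% of other wells (SD, n = 8 libraries, higher in 3 of 8, exact p = 0.25, adjusted 0.75). Unthinned, 7 of the 9 passed. Klf1 was found in 36.1 ± 12.8% of globin-rich and 0.774 ± 0.766% of other wells, and Hemgn in 31.9 ± 10.3% of globin-rich and 2.07 ± 1.24% of other wells, each higher in 8 of 8 libraries. Tfrc, at 39.6 ± 14.9% of globin-rich and 36.1 ± 5.16% of other wells, did not pass unthinned. A thinned well shows a gene of low level rarely, so a difference could not be detected at this depth for most of the genes.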

How the data were processed

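Per the labels' protocols, single cells were sorted and read with mCEL-Seq2. The submitters' processing notes name BWA 0.6.2-r126 and Seurat, with no genome build or annotation named in those sources. The authors deposited estimated counts, 1 value for each gene in each well, corrected for identifiers seen more than once and not scaled for depth. No doublet caller was run, because cells were sorted into single wells. Wells with at least 1000 transcripts were kept, chosen by globin level, summed per library and class without globin genes, and rounded. Sums were tested with edgeR 4.0.16 (robust quasi-likelihood, TMM, filterByExpr) in R 4.3.3, all 16 sums in 1 fit with library as a block. The fits were also run on simulated sums of independent counts, with no library effect and no sum resting on 1 well. That run could not show how the fits behave on the present sums. Single values were tested by exact permutation over libraries. Intervals and floors (3 counts) cover counting error only. The members, lists and tests were chosen with earlier results of these data known. The genes named were 13 erythroid genes, the up to 6 most abundant tested genes of each list, and in each comparison up to 12 leading higher and lower genes by log2 fold change past an adjusted p of 0.05 with at least 50 CPM and 1 direction in every library. The text gives those that describe each group, and other list members are named because they passed the test. Ahsp is not among the listed genes. P1 to P4 in the titles number the libraries of both kinds, but the libraries were not paired. Same-numbered globin-rich sums did not deviate together (correlations -0.04, -0.08, 0.07 and -0.05 over 2986 genes). In these sums 36.4% to 87.7% of the transcripts outside the globins came from 1 well, so the check could not show a shared source. Some genes are not reported here.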

Additional observations from a re-analysis of the deposited data

Results flagged for a closer look

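Each group of 4 libraries was searched for a library far from the other 3, by a rule that flags about 1 group in 20 by chance. It flagged 11 of 94 groups. That rate does not hold for sparse counts. Where 3 libraries stand at 0, any count in the other library is flagged, as for Myb, Bcl11a and Sox6. The number flagged is therefore not read as an excess. Slc4a1 was at 0 CPM in the globin-rich wells of A1/A2 library 4, where the other A1/A2 libraries had 419 to 500.4 CPM. In globin-rich wells of the A1/A2 libraries Kit stood at 55.9 CPM in library 4 against 0 to 8.17 CPM, Bcl11a at 55.9 CPM in library 4 against 0, and Myb at 8.17 CPM in library 2 against 0. In globin-rich wells of the EMP libraries Epor stood at 3.01 CPM in library 2 against 52.2 to 55.8 CPM, and Sox6 at 6.02 CPM in library 2 against 0. Myb, at 38.3 CPM, Bcl11a, at 83.5 CPM, and the progenitor markers, at 7.16 per 10000 against 0.888 to 1.50, were all high in globin-rich wells of EMP library 1. Of the 223 progenitor marker transcripts in those wells, 163 came from well 190. Among other wells, Slc4a1 stood at 2.10 CPM in EMP library 4 against 0.460 to 0.622 CPM, and the progenitor markers at 3.51 per 10000 in EMP library 2 against 6.30 to 6.78.

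The effect of Nepn, globin-rich over other wells, was higher in A1/A2 than in EMP libraries by 6.53 (log2) in the interaction test. Of 313 wells below 1000 transcripts, which the comparisons leave out, 33 stood past the globin threshold, 21 of them in A1/A2 library 3.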

How the results depend on the processing

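Of 253 alternative values over the 15 main results, 191 kept their direction and side of the threshold, or stayed within 1.5 times for a count. Some of these repeat the main analysis and show no stability. Asking for 1 globin-rich well per sum, or for 500 transcripts outside the globins, left every call count as it was. Shares of wells with Klf1 or Alas2, thinned to 500 transcripts, differed by 0 throughout. The cause of the others was not tested, except that thinning and leaving out wells or libraries leave fewer counts. The settings without same-number wells and with only the wells of 1000 or more globin transcripts were chosen after seeing the data. The 407 calls of A1/A2 libraries became 175 (123 higher, 52 lower) under DESeq2's Wald test, 694 at a threshold of 2 times the mean, 12 with wells thinned to 1000 transcripts, 29 without wells over 3 times their library's median total, and 142 (without replicate 3 of A1/A2) to 402 with a library left out. The 170 of EMP libraries became 102 under the Wald test, 15 with wells thinned, 95 with no replicate block, and 111 (without replicate 3 of EMP) to 177 with a library left out. The interaction's 1 call became 0 under the Wald test and 0 with no replicate block, 37 at 2 times and 2 at 5 times the mean, 2 with only the wells of 1000 or more globin transcripts, 5 without same-number wells, 13 without the deepest wells, and 0 to 9 with a library left out. Between globin-rich wells of A1/A2 and EMP libraries, 1 call became 0 with only the wells of 1000 or more globin transcripts, at 5 times the mean, with wells thinned and without same-number wells, 42 with no filter on low counts, 5 at 2 times the mean, 2 with the replicate block, and 0 to 3 with a library left out.

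Taken as medians over wells, the Hbb-y share of globin-rich minus other wells was -0.453 percentage points and the Hba-x share -3.81. The Hba-x share of A1/A2 minus EMP globin-rich wells was 3.94 points with the wells of 1000 or more globin transcripts and 0.0379 at 2 times the mean. With a library left out it ran from -2.29 to 3.29, the 2 Hbb-y differences from 1.80 to 4.41 (against other wells) and from 3.12 to 5.92 (between kinds), and the Hba-x difference from other wells from 0.595 to 1.83. Shares of wells without thinning differed by 26.8 points for Gata1, 35.3 for Klf1, 20.3 for Alas2, 31.4 for Slc4a1, 26.3 for Epor, 3.50 for Tfrc and 29.8 for Hemgn. At 1000 transcripts per well Gata1 differed by 0.929 and Tfrc by 5.21. Tfrc, at -0.0171 in the thinned wells, was at 1.43 with the wells of 1000 or more globin transcripts, 0.394 at 5 times the mean, 0.440 with totals of 2000 or more and 0.380 without same-number wells. With a library left out the thinned shares ran from -0.732 to -0.455 for Gata1, 0 to 0 for Klf1 and Alas2, 4.66 to 9.52 for Slc4a1, -0.0898 to 2.86 for Epor, -1.43 to 0.349 for Tfrc, and -0.311 to 2.19 for Hemgn.

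Over 320 gene results and 7094 alternatives, 6557 kept direction and side of the threshold, 423 lost their call, 93 gained one and 21 reversed. Without wells over 3 times the median total, log2 fold changes in A1/A2 libraries were -0.77 for Abcb10, -2.33 for Add2, -0.58 for Amn, -6.15 for Blvrb, -0.14 for Cd24a, -0.15 for Cpox, -4.09 for Epb42, -4.39 for Epor, -0.75 for Fth1, -3.17 for Kel, 0.36 for Mrc1, -0.49 for Pim1 and -7.44 for Urod, none of them called. The globin-rich sums of this setting hold fewer counts, so the sizes of these values are not read as opposite effects. Thinning gave -0.92 for Amn and -1.47 for Pim1 in A1/A2 libraries and 0.34 for Nrros and 0.32 for Srgn in EMP libraries. At 2 times the mean Pdgfra had 1.83 and S100a9 1.24 in A1/A2 libraries, and Acta2 had -2.51 in EMP libraries with the wells of 1000 or more globin transcripts. Nepn had -6.01 without A1/A2 replicate 3, where the globin-rich sums held none of its transcripts, and up to 4.63 with another A1/A2 library left out. Same-numbered libraries were not paired, and the correlation check could not decide whether they share a source. Depth limits what can be said of genes below the floor of 3 transcripts in the globin-rich sums.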

Other observations

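Globin-rich wells were looked up in the deposited series table, which holds 689 wells of the A1/A2 libraries. All 23 globin-rich wells of the A1/A2 libraries are among them.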
